A study of Homo sapiens with 8 samples.

Results

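Mid-width H3K4me1 domains that were continuous in one genotype and broken into separate peaks in the other were examined in MDA-MB-231 cells, a human line derived from triple-negative breast cancer. The domains were chosen by the measured lengths and overlaps of the peaks themselves. A domain here is a deposited peak of 3000 to 9999 bases on chromosomes 1 to 22 or X. It was called split when at least 2 separate peaks of the other list overlapped it by 1 base or more. With the lists as deposited, 3714 of 156594 peaks were such domains: 1177 control domains split in the ARID1A knockout list and 2537 knockout domains split in the control list. After control peaks with gaps of up to 1444 bases had been merged, there were 1495 and 1671, or 3166 in all.

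Control cells were compared with ARID1A knockout cells, and each genotype had 2 immunoprecipitated and 2 input samples, 8 samples in 4 groups. The labels do not say how the knockout was made, whether it was 1 clone, or what the control cells carried. The antibody label says H3K4me1, whereas the protocol text gives the same catalogue number as an antibody to H3K4me3, so which mark was recovered at promoters rests on the label. The deposited data are 2 peak lists, 1 for control and 1 for knockout, each calling the immunoprecipitate over its input on hg38. Replicate spread cannot be seen in them, no test was run, and every difference given here describes these 2 lists.

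H3K4me1 is a methyl mark on histone H3 placed mainly by KMT2C and KMT2D, and it is known for marking enhancers. At an active CpG-rich promoter the nucleosomes next to the transcription start usually carry H3K4me3 instead, and H3K4me1 lies on both flanks, so that a start sits in a dip between 2 shoulders. ARID1A is a DNA-binding subunit of the canonical BAF form of SWI/SNF, a complex that slides and evicts nucleosomes at enhancers and promoters. In a split domain, the peak calls of the other list leave a gap where the domain itself is continuous. Below, such a gap is also called a dip, and it means only that no peak was called there. The smallest gap was 1249 bases in the control list and 1445 bases in the knockout list. A narrower drop in signal may therefore lie inside a continuous peak. Merged control peaks span gaps of up to 1444 bases by construction.

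The sequences just upstream of 5 gene starts are shown first, because starts such as these lay in the dips. The first 3 lay between 2 control peaks and inside 1 knockout domain, and the last 2 lay between 2 knockout peaks and inside 1 control domain. Each run is the 200 bases before an annotated start, 5′ to 3′ on the gene's strand, from RefSeq on GRCh38.p14, with CpG dinucleotides in capitals. CTSD encodes the lysosomal protease cathepsin D, CEBPG a bZIP transcription factor, RBBP5 a core subunit of the H3K4 methyltransferase complexes, MICALL1 a protein of endocytic recycling, and CASP2 a caspase.
CTSD, chr11:1763928-1764127, minus strand: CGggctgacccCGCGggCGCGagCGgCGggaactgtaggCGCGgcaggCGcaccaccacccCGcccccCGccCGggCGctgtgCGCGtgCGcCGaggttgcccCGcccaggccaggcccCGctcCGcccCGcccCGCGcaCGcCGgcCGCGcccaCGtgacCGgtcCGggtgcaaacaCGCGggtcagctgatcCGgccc
CEBPG, chr19:33373509-33373708, plus strand: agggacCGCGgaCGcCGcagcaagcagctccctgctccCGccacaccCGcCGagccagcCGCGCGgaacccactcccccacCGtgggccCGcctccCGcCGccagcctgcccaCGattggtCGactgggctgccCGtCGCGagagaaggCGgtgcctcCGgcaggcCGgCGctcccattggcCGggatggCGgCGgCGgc
RBBP5, chr1:205121979-205122178, minus strand: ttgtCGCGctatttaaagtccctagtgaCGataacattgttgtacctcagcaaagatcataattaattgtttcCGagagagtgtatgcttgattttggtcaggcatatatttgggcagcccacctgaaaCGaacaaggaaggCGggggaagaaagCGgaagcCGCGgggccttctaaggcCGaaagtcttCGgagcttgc
MICALL1, chr22:37906097-37906296, plus strand: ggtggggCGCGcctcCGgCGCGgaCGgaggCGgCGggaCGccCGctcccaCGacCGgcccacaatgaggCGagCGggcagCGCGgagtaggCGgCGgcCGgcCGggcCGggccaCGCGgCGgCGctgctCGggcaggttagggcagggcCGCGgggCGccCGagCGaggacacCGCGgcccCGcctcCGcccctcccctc
CASP2, chr7:143288151-143288350, plus strand: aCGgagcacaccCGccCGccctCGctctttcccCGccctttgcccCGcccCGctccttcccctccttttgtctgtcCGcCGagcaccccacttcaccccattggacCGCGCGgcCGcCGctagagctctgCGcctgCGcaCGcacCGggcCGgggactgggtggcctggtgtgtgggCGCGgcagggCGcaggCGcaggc
These windows held 34 CpGs in CTSD, 27 in CEBPG, 11 in RBBP5, 35 in MICALL1 and 23 in CASP2. The capitals show CpGs in all 5, in both directions of the split, with the fewest in RBBP5.

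The rule itself set the counts of split domains, so they are given without a test. As deposited, 1177 of 14992 control domains were split (7.85%, 95% exact interval 7.43 to 8.29) and 2537 of 15641 knockout domains (16.2%, 15.6 to 16.8). After merging, 1495 of 15655 control domains (9.55%, 9.09 to 10.02) and 1671 of 15641 knockout domains (10.7%, 10.2 to 11.2) were split. These intervals, like all others below, cover counting over peaks only. Much of the excess of split knockout domains was thus at narrow control gaps. Of the 2627 gaps inside split knockout domains, 921 (35.1%) were no wider than 1444 bases, a width at which the knockout list has no gap at all. In each list the smallest gap was 4 times the shortest peak plus 1, or 1249 bases for control and 1445 for knockout, which is why both versions are given. Merging kept 1112 of the 1177 split control domains (94.5%) and 1671 of the 2537 split knockout domains (65.9%).

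A split domain was usually broken once. As deposited, 1151 of the split control domains met 2 knockout peaks and 26 met 3. Of the split knockout domains, 2451 met 2 control peaks, 82 met 3 and 4 met 4. The median gap was 1875 bases in control domains and 1542 in knockout domains, with a widest gap of 6341 and 6348 bases. On merged control peaks the medians were 1863 and 1701 bases, and the widest gaps were unchanged. The peaks of the other list left 41.2% of the bases of split control domains uncovered (3.14 Mb) and 39.7% of those of split knockout domains (5.60 Mb). About 4 in 5 of the uncovered bases lay in the gaps between the pieces, 80.6% and 79.5%, and the rest lay at the domain edges. In domains met by a single peak of the other list, 19.6% and 17.2% of bases were uncovered.

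Longer domains were split more often in both directions. As deposited, 2.18% of control domains of 3000 to 3999 bases were split and 30.1% of those of 9000 to 9999 bases. The same classes of knockout domains gave 10.2% and 31.0%. After merging, the shares were 2.82% and 34.8% in control domains and 5.76% and 24.7% in knockout domains. After merging, the order of the directions turned with length: below 6000 bases a larger share of knockout domains was split, and from 7000 bases a larger share of control domains. As deposited, the knockout share was the larger in every length class. Split control domains had a median length of 6413 bases and split knockout domains one of 5153, against 4252 and 4269 for domains met by 1 peak. Next to the length limits the share changed little: 8.21% of knockout domains of 2900 to 2999 bases were split and 10.8% of those of 3000 to 3099 bases. At the upper limit it was 33.7% at 9500 to 9999 bases and 34.5% at 10000 to 10499 bases. In control domains the 4 shares were 0.856%, 1.28%, 31.0% and 25.4%.

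**Figure D1:**
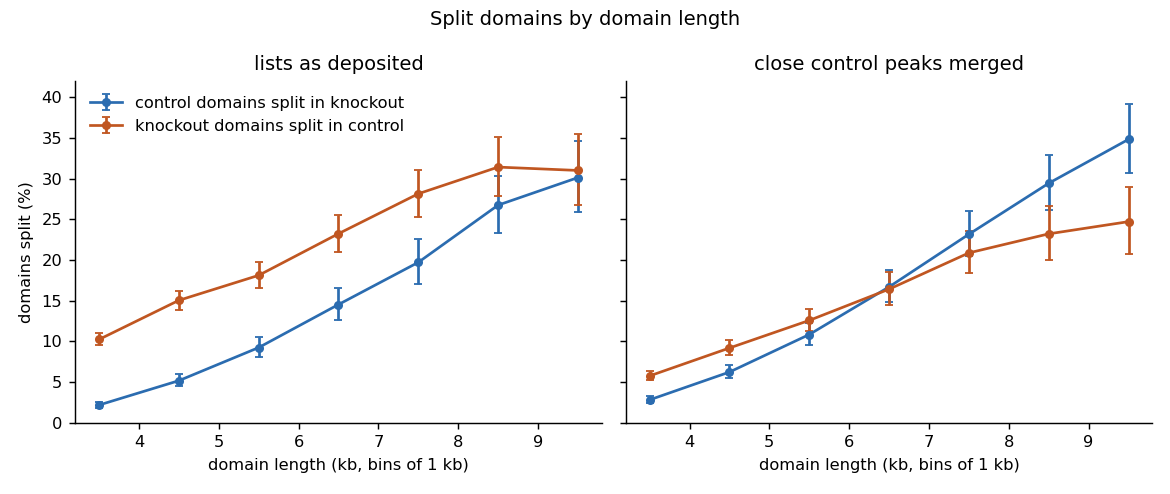
Share of mid-width domains (percent, y axis) that met at least 2 peaks of the other list, by domain length in bins of 1 kb (x axis), for the lists as deposited (left) and with close control peaks merged (right); points are shares of all domains of a bin and bars are 95% exact intervals over domains. The knockout points lie above the control points in every bin as deposited, and the 2 lines cross near 6 to 7 kb after merging.

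Split domains were weaker than domains left whole. The authors' −log10 q of a domain had a median of 5.23 in split control domains and 6.27 in control domains met by 1 knockout peak. In knockout domains it was 6.23 and 7.55. Their fold enrichment over input had medians of 3.55 against 3.86 and 3.55 against 3.84. Because −log10 q went with length, the comparison was repeated within length classes: of control domains of 3000 to 4999 bases, 5.05% of the 2398 weakest by −log10 q and 0.959% of the 2399 strongest were split. For knockout domains the 2488 weakest gave 14.95% and the 2488 strongest 4.06%. The 2488 next above the weakest gave 16.8%, so in this class the share did not fall at every step of strength. The peaks within a split domain were uneven. The weaker piece had a median −log10 q of 2.56 in split control domains and 2.79 in split knockout domains, and it was under 2 in 35.5% and 27.6% of them. Both pieces reached 5 in 20.0% and 15.2%. The pieces ran past the edge of the domain in 53.0% and 50.5% of cases.

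The gaps lay at different places in the 2 directions, and the rule did not use their position. Coding gene starts from RefSeq were counted in the gaps on 22 chromosomes, all but chromosome 8, whose starts were not used here. These starts covered 79.2% of coding genes, so the shares are lower limits. As deposited, 940 of 2503 gaps inside split knockout domains held a coding start (37.6%, 35.7 to 39.5), compared with 35 of 1160 gaps inside split control domains (3.02%, 2.11 to 4.17). On merged control peaks the counts were 567 of 1623 (34.9%, 32.6 to 37.3) and 99 of 1475 (6.71%, 5.49 to 8.11). The 2 intervals lay far apart in both versions. Counting either end of any coding gene record instead, on all 23 chromosomes, gave 36.6% of 1706 gaps and 9.06% of 1534 gaps after merging.

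In split knockout domains the starts were dense in the gaps and sparse in the pieces around them. After merging, the gaps of knockout domains held 247 coding starts per Mb and the pieces 20.0 per Mb. In control domains the same densities were 40.0 and 26.6 per Mb. As deposited they were 289 and 18.4 per Mb in knockout domains and 16.8 and 19.4 per Mb in control domains, where the pieces held 84 starts and the gaps 41. By domain, 562 of 1588 split knockout domains (35.4%) had a start in a gap, and 624 of the 1588 (39.3%) had one anywhere inside. Of the 12882 knockout domains met by 1 control peak, 11.4% held a start, and of the 12986 control domains met by 1 knockout peak, 11.5%. In split control domains it was 14.2% of 1437 after merging, and 8.90% against 8.26% of whole domains as deposited. In 73 of the 567 gaps of knockout domains with a start (12.9%) coding starts on both strands were present, and in 4 of the 99 of control domains. A noncoding start alone was found in 3.60% of the other gaps of knockout domains and 1.24% of those of control domains.

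The midpoints of the domains showed the same difference. Of split knockout domains, 26.5% had their midpoint within 1000 bases of an end of a coding gene record as deposited and 23.9% after merging. Of knockout domains met by 1 control peak, 5.79% and 7.44% did. Split control domains had 3.99% and 6.35% there, against 6.03% and 7.91% of those met by 1 knockout peak. Split control domains lay mostly inside genes, 70.7% as deposited compared with 62.6% of control domains met by 1 peak. Fewer of either kind were more than 50000 bases from any coding gene than of whole domains, 6.97% against 12.7% in control and 9.58% against 14.8% in knockout.

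Width of the gap and presence of a start went together. After merging, 44.5% of knockout-domain gaps of 1445 to 1599 bases held a start, 45.1% of those of 1600 to 1799 bases, 29.3% of those of 1800 to 1999 bases, and 19.6% of those of 2000 to 2499 bases. Only 5 of 92 gaps of 2500 to 2999 bases and 8 of 84 wider gaps did. In control-domain gaps the share was 14.01% at 1445 to 1599 bases and 2.41% at 2000 to 2499 bases. Short domains carried the pattern most: 55.8% of gaps inside knockout domains of 3000 to 3999 bases held a start, and 17.9% of those inside domains of 9000 to 9999 bases. At matched width the knockout-domain share was above the control-domain share up to 2499 bases, with intervals that did not overlap.

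**Figure D2:**
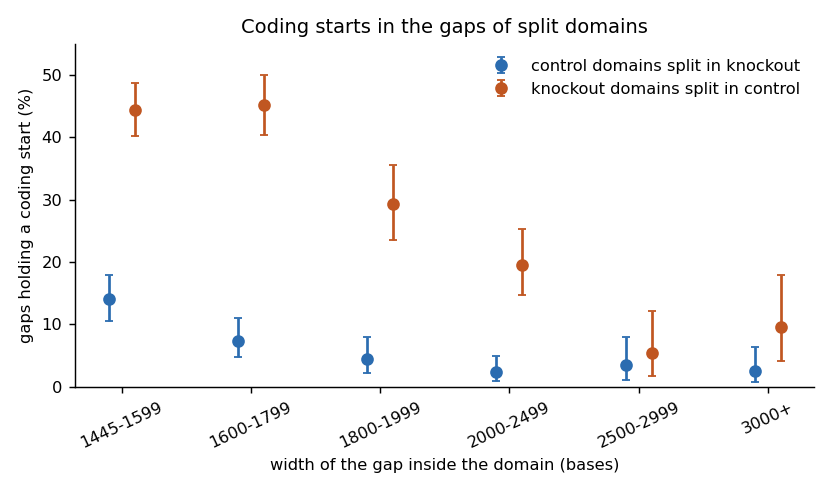
Share of the gaps inside split domains (percent, y axis) that held a coding gene start, by gap width in bases (x axis), after merging of close control peaks; points are shares over gaps on 22 chromosomes and bars are 95% exact intervals. Gaps in knockout domains reach 45.1% at 1600 to 1799 bases, and gaps in control domains stay at or below 14.01% in every width class.

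The same question was put to all gaps between neighbouring peaks, whether or not a mid-width domain crossed them. Of 18651 control gaps of 1445 to 3999 bases, 12.6% were crossed by 1 peak of the knockout list. Of 16560 knockout gaps of that width, 11.8% were crossed by a deposited control peak and 15.2% by a merged one. Merging joined only control gaps of up to 1444 bases, so the control share of 12.6% could not change. The order of the directions turned after merging, as merged control peaks crossed more knockout gaps. Among control gaps of 1445 to 1599 bases, 338 of 616 with a coding start were crossed (54.9%, 50.8 to 58.8), and 29.0% of those with neither a start nor an end of a gene record. At 1600 to 1799 bases the shares were 32.9% and 22.03%. From 1800 bases the order turned, with 12.5% and 18.3%, and at 2000 to 2499 bases it was 4.48% and 9.78%. Knockout gaps with a start were crossed less often than those without at every width. Of 613 knockout gaps of 1445 to 1599 bases with a start, 20 were crossed by a deposited control peak (3.26%) and 73 by a merged one (11.9%), against 35.3% and 42.3% of gaps without a start or gene end. The start gaps of the control list that the knockout list lacked were thus mostly narrow ones, under 1800 bases.

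Gaps that both lists kept were then compared in width, using those matched one to one between the lists, of at least 1445 and under 6000 bases in each, with starts counted in the stretch that both gaps share. At 3629 such gaps with a coding start the median width was 2340 bases in control and 2064 in knockout. The knockout gap was narrower in 2985 of them (82.3%, 81.0 to 83.5), and the median difference, knockout minus control, was -234 bases. At 8759 gaps with neither a start nor an end of a gene record the median difference was 23 bases, and 4253 were narrower in the knockout list (48.6%, 47.5 to 49.6). The narrowing at starts was seen in each width class: by mean width it was -138 bases at 1445 to 1999 bases, -289 at 2000 to 2999 and -371 at 3000 to 5999. Away from starts the 3 values were 4, 41 and 22 bases. Most start gaps present in both lists were thus narrower in the knockout list. The lists also differ in their shortest peak, 312 and 361 bases, and whether this bears on the widths at starts was not tested.

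**Figure D3:**
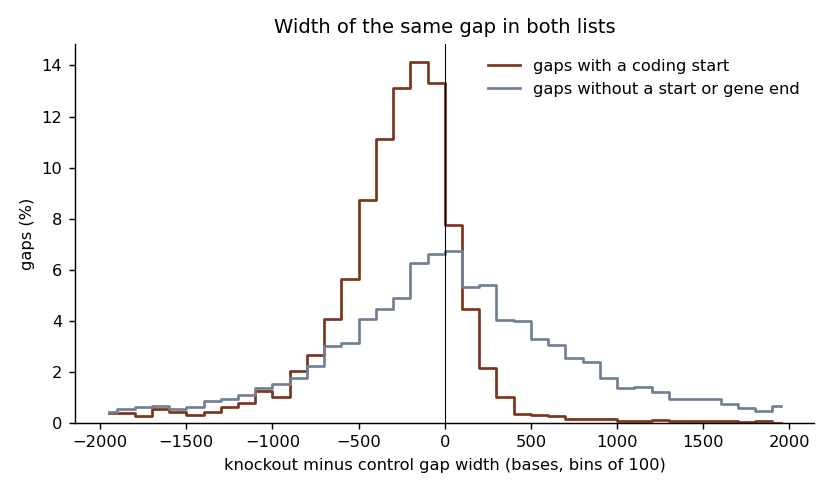
Distribution of the width difference, knockout minus control (bases, x axis, bins of 100, drawn between -2000 and 2000), of gaps present in both lists, as a share of the gaps of each kind (percent, y axis), for 3629 gaps with a coding start and 8759 gaps without a start or gene end. The curve for gaps with a start lies mostly below 0, with a median of -234 bases, and the other is centred near 0.

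Of all 22131 coding starts, a larger share lay inside a called peak in the knockout list. The start base lay inside a peak at 15.04% of starts in the control list, 19.3% after merging and 24.1% in the knockout list. At 1000 bases downstream the shares were 28.8%, 29.9% and 35.8%. At 3000 bases downstream the order was reversed, with 32.0%, 32.4% and 27.0%. At 1000 bases upstream they were 29.4%, 30.0% and 31.2%, and at 3000 bases upstream 17.3%, 17.8% and 15.6%. Coverage in the knockout list was thus higher next to the start and lower farther away on both sides. Of 7633 starts that lay between 2 control peaks within 2500 bases on each side, 1785 lay inside a knockout peak (23.4%), or 1062 of 6697 after merging (15.9%). Of 5859 starts between 2 knockout peaks, 89 lay inside a control peak (1.52%), or 192 inside a merged one (3.28%).

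**Figure D4:**
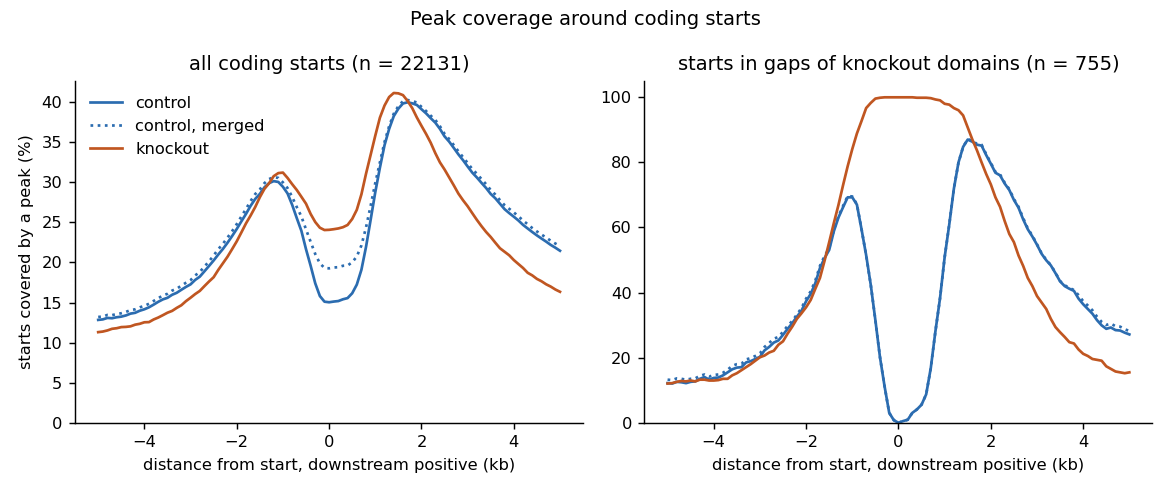
Share of coding starts (percent, y axis) covered by a peak at each distance from the start (kb, x axis, downstream positive), for all 22131 starts (left) and for the 755 starts in gaps of split knockout domains (right), with lines for the control list, the merged control list and the knockout list. At the start the knockout line lies above both control lines on the left; on the right the split rule sets the lines near the start, and the control shoulder downstream is farther away and higher than the upstream one.

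The dips of split knockout domains were off centre. In 489 merged gaps that held starts of 1 coding gene only, the median distance from its most upstream start in the gap to the upstream edge was 566 bases and to the downstream edge 1070 bases. The downstream part was the longer one in 391 of the 489. In the 94 such gaps of control domains the medians were 806.5 and 876 bases, and the downstream part was longer in 46. As deposited, the 823 gaps of knockout domains had medians of 521 and 969 bases. The 35 gaps of control domains had 1065 and 760 bases, with the upstream part longer in 24. The start thus sat nearer the upstream shoulder in knockout domains in both versions, whereas in control domains its place differed between the versions. Over all 22131 coding starts, control coverage was highest at 1200 bases upstream (30.1%) and 1700 bases downstream (40.0%). In the knockout list the highest values lay at 1000 bases upstream (31.2%) and 1400 bases downstream (41.1%). An off-centre dip was therefore not particular to split knockout domains.

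The promoters in the gaps were CpG-rich in both directions. Over the 300 bases around a start, 250 before and 50 after, the median count of CpGs was 27 for the 755 starts in gaps of knockout domains, 26 for the 124 in gaps of control domains and 21 for all coding starts. It was 29 for the 4800 starts between peaks in both lists, 20 for the 3233 inside a peak in both, and 6 for the 6221 with no peak in either. At least 15 CpGs were present in 87.5% of the starts in knockout-domain gaps, 84.7% of those in control-domain gaps and 62.3% of all. The starts in gaps were thus like other starts that sit in a dip, and unlike starts covered by a peak in both lists.

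Short motifs were searched on both strands of the same 300 bases. TATAAA, the TATA box, was found at 3.31% of starts in knockout-domain gaps, 3.23% in control-domain gaps and 9.46% of all starts. GGGCGG, the GC box bound by SP1 family factors, was found at 70.7%, 79.8% and 56.3%. CCGGAAG, bound by ETS family factors, was found at 24.1%, 19.4% and 12.8%, and at 20.9% of starts between peaks in both lists. TGACTCA, the AP-1 site, was found at 3.44%, 4.84% and 4.01%. GGGCGG and CCGGAAG each contain a CpG. At starts between peaks in both lists the GC box was found at 76.7%, the first motif at 4.04% and the AP-1 site at 2.65%. The GC box share there was above that of starts in knockout-domain gaps and below that of starts in control-domain gaps. The matches describe letters, not binding.

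Single loci show the 2 kinds of split. At GFM2 and NSA2, divergent genes for a mitochondrial translation factor and a ribosome assembly factor, the knockout domain chr5:74759789-74769039 was 9251 bases long with a −log10 q of 19.3 and a fold enrichment of 5.85. The control list had 2 peaks there, with −log10 q of 12.2 and 5.92, and a gap of 1636 bases that held both starts. At CEBPG the knockout domain chr19:33372766-33378002 (−log10 q 17.3) faced control peaks of 1.68 and 7.41 with a gap of 1919 bases. Its 2 annotated starts, 33373709 and 33374113, both lay in the gap, so the upstream shoulder in the control list was a weak peak.

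COX7A2, UHRF1 and NIT1 with PFDN2 came next among knockout domains with a start in the gap that were not in the strongest 8 of all. COX7A2 encodes a subunit of cytochrome c oxidase, and its domain of 4615 bases (−log10 q 17.0) was broken by a control gap of 1510 bases between peaks of 14.1 and 4.46. UHRF1 encodes a reader of hemimethylated DNA, and its domain of 9210 bases (16.5) was broken by 1879 bases between peaks of 3.62 and 15.6, with 3 annotated starts in the gap. The domain at NIT1 and the prefoldin gene PFDN2, 6535 bases long (16.3), was broken by 2176 bases between peaks of 5.91 and 6.99. In these 5 domains 1 control shoulder was weaker than the other, and the difference was smallest at NIT1.

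Among the strongest split knockout domains by −log10 q, RASA3 came first. RASA3 encodes a GTPase-activating protein for Ras and Rap, and its domain chr13:114062474-114069518 had a −log10 q of 34.9 and a fold of 7.04. Control peaks of 11.2 and 30.0 flanked a gap of 1888 bases inside the gene. Others among the strongest 8 were MEAK7 (25.9, gap 1580), HIPK2 (24.4, gap 2052), CTSD (22.5, gap 1858), CSRNP1 (20.9, gap 1670), KIF25 (20.7, gap 1532) and LIFR (20.2, gap 2047). At MEAK7, CTSD and CSRNP1 the gap held the gene's own start, whereas at RASA3, HIPK2, KIF25 and LIFR no coding start was found in it. At CTSD the control pieces had −log10 q of 23.03 and 6.95, on the gene side and upstream of the start.

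The strongest split control domains were mostly away from starts. HS1BP3 held the first, chr2:20576518-20586016, 9499 bases with a −log10 q of 24.6. The 2 knockout peaks in it had −log10 q of 24.7 and 24.3, ranked within their own list, and the gap was 1532 bases. RPTOR, which encodes the scaffold of mTORC1, had a domain of 18.9 broken by 1491 bases between knockout peaks of 22.8 and 11.2. MKNK2, a kinase of the translation factor eIF4E, had one of 18.1 next to the gene, broken by 1451 bases between peaks of 23.9 and 10.4. These 3 gaps were among the narrowest of the knockout list, in which 1445 bases was the smallest.

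Wider gaps were seen at SLC22A5, a carnitine transporter gene, with 2164 bases between knockout peaks of 19.5 and 4.05, at CYP24A1, the vitamin D catabolic hydroxylase gene, with 1868 bases between 23.1 and 3.61, and at CHKA, choline kinase alpha, with 1744 bases between 15.9 and 5.81. The domains near CYP24A1 and SLCO4A1 lay 14655 and 17226 bases from the gene record. None of the 8 strongest split control domains had a coding start in the gap. The starts of MICALL1, ASPSCR1, CASP2, SLC12A4 and KRABD2 lay in the gaps of the 5 strongest that did. MICALL1 (17.8) was broken by 1765 bases between knockout peaks of 10.6 and 7.46, and CASP2 (12.0) by 2533 bases between peaks of 5.02 and 12.7. ASPSCR1 (12.8) had a gap of 1464 bases next to a knockout peak of only 1.32.

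**Figure D5:**
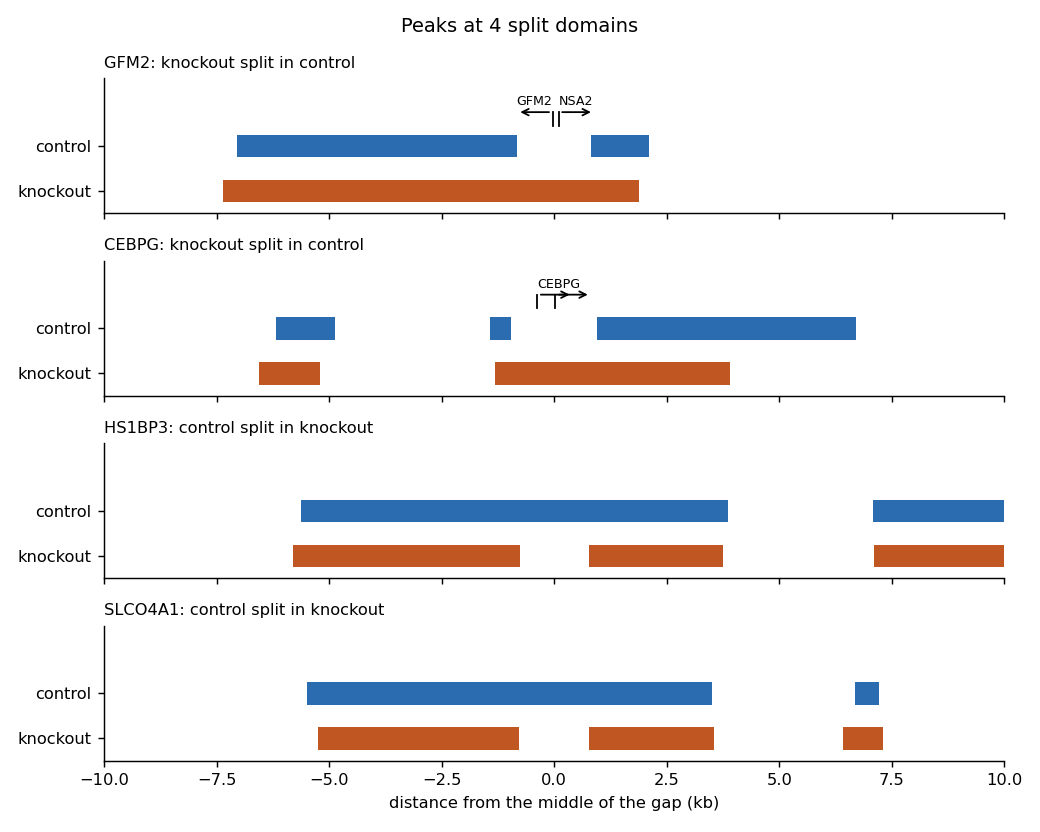
Peaks of the control and the knockout list (bars, 1 row each) around 4 split domains, against distance from the middle of the gap in kb (x axis); arrows mark annotated coding starts and their direction. At GFM2 with NSA2 and at CEBPG the control gap of 1636 and 1919 bases holds the starts, and at HS1BP3 and SLCO4A1 the knockout gap of 1532 and 1546 bases holds none.

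The most thinly covered domains were of another kind, with short pieces inside a long domain. At GARRE1 the control domain of 9275 bases (−log10 q 6.96) met knockout peaks of 5.41 and 4.35 with 5659 bases between them, and 7883 of its bases were uncovered. At IGF1R, the receptor for insulin-like growth factors, 7409 of 9253 bases were uncovered. At VIPR1, the receptor for vasoactive intestinal peptide, the knockout domain of 9527 bases (7.94) met control peaks of 2.16 and 4.14 with 5590 bases between them, and 7389 of its bases were uncovered. At NRCAM, a neuronal cell adhesion gene, 7007 of 8823 bases were uncovered, and at KLHDC10 6829 of 8202. The domains at DDX6 (1.89) and IGF1R (2.65) were themselves close to the lowest −log10 q of the control list, 1.01.

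Some genes carried several split domains. By domains split both as deposited and after merging, IGF1R had 3 of its 14 mid-width control domains split, PALLD, an actin-associated gene, 3 of 13, and the neighbouring purine synthesis genes PAICS and PPAT shared 3, of 4 and 3. In the other direction ARHGAP42 had 5 of 12 knockout domains split, SLC4A7, a sodium bicarbonate cotransporter gene, 4 of 4, TNS3 3 of 8 and FRMD4A 3 of 11. After merging, 1517 coding genes had a split control domain within 5000 bases of the gene record, and 1692 had a split knockout domain. Both were found at 265 genes, 17.5% of the former and 15.7% of the latter. For scale, these 1517 and 1692 genes were out of 19970 coding genes in all. Of the 8236 with a mid-width knockout domain in that window, 20.5% had a split knockout domain after merging. The 1517 genes were not limited to those 8236, so 20.5% is not a like share for the overlap. Whether the overlap of 265 genes departs from such shares was not tested.

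Gene groups were read against all coding genes with a mid-width domain within 5000 bases. Of 8146 genes with such a control domain, 14.9% had 1 split as deposited, and of 8236 with such a knockout domain, 31%. Genes of focal adhesion and actomyosin had 6 of 20 with a split control domain (PTK2, LPP, BCAR3, LIMCH1, ILK and MACF1) and 5 of 20 with a split knockout domain (TNS3, LPP, LIMCH1, PARVA and MACF1). The lists are short, and LPP, LIMCH1 and MACF1 were split in both directions at different domains. MACF1, a giant crosslinker of actin and microtubules, had a control domain of 9929 bases broken by 3836 bases between knockout peaks of 6.04 and 6.46. At TNS3, a tensin of adhesion sites, a knockout domain of 9062 bases was broken by 2393 bases between control peaks of 1.71 and 3.52.

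TGF-beta pathway genes had 1 of 16 with a split control domain and 7 of 17 with a split knockout domain. The 7 were the ligand gene TGFB2, the coreceptor gene TGFBR3, the inhibitory SMAD genes SMAD6 and SMAD7, the latent binding protein gene LTBP1, the corepressor gene TGIF1 and the target gene PMEPA1. At SMAD6 the knockout domain chr15:66758379-66767655 (−log10 q 13.5, fold 5.75) met control peaks of 1.96 and 1.67 with 2641 bases between them, and 6538 of its bases were uncovered. At TGFBR3 a control domain of 8609 bases (8.80) met knockout peaks of 15.2 and 9.77 across 1996 bases.

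SWI/SNF subunit genes had 2 of 16 with a split control domain, SMARCD3 and BCL7A, and 4 of 16 with a split knockout domain, ARID1A, SMARCB1, SMARCD1 and SS18. ARID1A itself had 1 of its 4 mid-width knockout domains split as deposited, with 1556 uncovered bases, and 0 after merging. The peak lists do not measure ARID1A transcript or protein. SMARCD3, a BAF60 subunit gene, had a start inside the gap of 2881 bases of its split control domain. Genes for H3K4 methyltransferases and demethylases had 2 of 7 and 2 of 9, among them the demethylase gene KDM1A in both directions. RBBP5, shown above by its promoter, had a knockout domain of 3480 bases (7.87) broken at its start by 1471 bases between control peaks of 8.96 and 2.66.

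Of luminal breast genes, none of 11 with a control domain and 5 of 11 with a knockout domain had a split one, KRT8, KRT18, MUC1, CA12 and MLPH, where KRT8 and KRT18 are neighbours. At MLPH, the melanophilin gene, the knockout domain of 7811 bases met 3 control peaks, and the wider gap of 2665 bases held the start. Basal breast genes had none of 10 and 2 of 9, MYLK and CAV2. Mesenchymal genes had 1 of 10 and 4 of 16, with ZEB1, a repressor of epithelial genes, in both directions at separate domains. YAP-TEAD targets had 2 of 18, TEAD1 and ARHGEF17, and 5 of 20, among them the coactivator gene WWTR1 and TGFB2, which is also in the TGF-beta list.

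Inflammatory and NF-kB genes had 3 of 15, NFKB1, BIRC3 and TNFAIP2, and 3 of 13, NFKBIZ, CCL20 and ICAM1. NFKBIZ and ICAM1 were split at their starts, by control gaps of 2466 and 1718 bases. RUNX and ETS genes had none of 12 and 4 of 14, RUNX1, RUNX2, RUNX3 and ELF1. AP-1 genes had none of 7 and 1 of 7, lipid and cholesterol synthesis genes 2 of 13 and 2 of 13, and MAPK feedback genes 1 of 13, DUSP5, and none of 12. These group counts are for the lists as deposited. After merging, ARID1A, KDM1A, AXL, TEAD4, DLC1, TGIF1, MUC1, RUNX2, CCL20 and MVK had no split knockout domain left, and HMGCS1 no split control domain. YAP-TEAD targets with a split knockout domain thereby fell from 5 to 2. Merging also gave TGIF1, CAV2, NFKBIZ, SPRED2, CD34 and PECAM1 a split control domain. Over the 15 lists as deposited, 4 had a larger share than all genes for control domains and 2 for knockout domains, which is read as no more than a count.

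A mid-width control domain lay within 5000 bases of 10 of 20 mesenchymal genes, 11 of 18 luminal genes, 10 of 15 basal genes, 5 of 10 endothelial markers and 2 of 10 haematopoietic markers, beside 8146 of 19970 coding genes. These counts do not separate the labelled cell type from others, and the label was taken as given. The endothelial marker PECAM1 had a strong knockout domain (−log10 q 18.1) that was split in the control list by 2485 bases. By a start in a gap after merging, 642 of 15811 coding genes (4.06%) were found in knockout domains and 103 (0.651%) in control domains. Of the genes of the lists, SMARCD1, RBBP5, MACF1, PMEPA1, MLPH, NFKBIZ and ICAM1 were among the 642, and SMARCD3 among the 103.

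Split domains were found on every chromosome used. After merging, the share of split control domains ran from 6.13% on chromosome 13 to 12.1% on chromosome 20, and that of split knockout domains from 8.64% on chromosome 15 to 15.7% on chromosome 21. Gene-rich chromosome 19 had 12.04% and 14.98%. The input background behind a peak, estimated as (pileup + 1) / fold − 1, was compared at the same place in both lists. The median ratio of knockout to control was 1.26 at split control domains and 1.29 at those met by 1 peak, and 1.28 and 1.29 at knockout domains. At split knockout domains with a start in the gap it was 1.26. By these medians the implied background was higher in the knockout list at split and whole domains alike. Whether this bears on the splits was not tested. Read totals were not used here, so the depth behind a gap is unknown, and a gap means that no peak was called, not that the mark was absent.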

How the data were processed

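H3K4me1 ChIP-seq samples of 2 genotypes were grouped by the labels for genotype and antibody. Micrococcal nuclease was used to cut the chromatin, per the labels' protocols, and a control IgG named there was not analysed here. The submitters' processing notes name Bowtie2 2.3.5.1, MACS2 2.2.6 and hg38. Settings, and how replicates entered a list, are not given in the sources used; each list was treated as pooled. The deposited columns are, per the file headers, the position of each peak, its pileup (a signal of stacked fragments), its fold enrichment and the −log10 of p and q values. These are the authors' averages over a peak, set against its input, and were used only to rank, filter and describe peaks within a list. Both lists go down to a −log10 q of 1.01. Depth is unknown.

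Only chromosomes 1 to 22 and X were kept, which removed 6 control and 3 knockout peaks. Overlaps, gaps and uncovered bases were computed with Python 3.11.15, pandas 2.3.3 and NumPy 2.4.6, and intervals are Clopper-Pearson at 95% (SciPy 1.17.1). The overlap code was checked on a copy of the control list with 200 domains cut in the middle, and it found 200, with 0 others. As all other domains met their own copy, this checks the code and not split calls between 2 different lists. Gene records and starts were from RefSeq, GRCh38.p14, whose chromosomes have the coordinates of hg38. Each of the 258 entries in the 15 gene lists had a match. The implied input background assumes the default pseudocount of MACS2, which is 1.

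The members, gene lists and alternatives were chosen with earlier results of these data known. Domains were named, among those split both as deposited and after merging, by a rule: in each direction the 8 of highest −log10 q, the 5 with most uncovered bases, the 5 of highest −log10 q with a coding start in a gap, the 4 genes with most split domains, and up to 2 genes of each list. A locus named once was not named again. Some were left out for length, and 1 is not reported here. Other genes of the lists were named after their values were seen. Alternatives changed the merging, the q threshold, the overlap, the length limits and the gene window.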

Additional observations from a re-analysis of the deposited data

How the results depend on the processing

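In each setting in which starts were counted, a larger share of split knockout than of split control domains had a coding start in a gap; changes of the overlap rule, the pieces, the shortest peak and the length limits were run for counts alone. Values below are given for control domains and then knockout domains. With the control merged, the shares with a start moved to 6.89% and 35.4%, the shares at a gene end to 6.35% and 23.9%, and there were 1671 split knockout domains with a median gap of 1701 bases, or 1600 with the shortest peak also made equal. At a −log10 q of at least 2 there were 762 split control domains, and the knockout shares were 43.7% with a start and 30.3% at a gene end, with a median gap of 1523.5 bases. With that threshold on the pieces alone there were 771 split control domains. At a −log10 q of at least 5 there were 198 and 369 split domains, with a start in 4.66% and 44.2%, a knockout median gap of 1505 bases and 7.05% of knockout domains far from genes. Domains under 6000 bases gave 511 and 1604. The remaining changes of the overlap rule and the length limits kept the counts within 1.5 times.

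The next settings were chosen after seeing the data. With both lists merged to 2000 bases, the shares with a start were 8.42% and 44.1%, at a gene end 8.71% and 28.5%, and far from genes 10.1% for control domains; the median gaps were 2465.5 and 2290 bases, and 1461 knockout domains were split. With the control merged to 1542 bases, adding 2 times the difference of the shortest peaks, the shares were 11.3% and 32.2%, at a gene end 9.54% and 22.1%, and far from genes 11.3% for knockout domains; the median gaps were 1842 and 1806 bases, and 1290 knockout domains were split against 1698 control domains, so the order of the 2 counts turned. Under the threshold of 5 the width difference was -271 bases for gaps with a start and 49 bases for gaps without one. Gaps with a start of at least 2000 bases gave -265 bases. With a window of 50000 bases, 7 gene lists lay above all genes for split knockout domains.

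No paired analysis was possible because each genotype has 1 list that carries no replicate, and leaving out a replicate was not possible for the same reason. Without reads or depth, a gap cannot be told from signal just under the threshold, and the q values of the lists need not be equally strict.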

Other observations

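Gene families were counted among the genes with a start in a gap after merging; the families were picked after their values were seen, and no test was made. Genes for ribosomal proteins of the cytoplasm, which are transcribed strongly from short CpG-rich promoters, had 16 of 63 with a start in the gap of a knockout domain (25.4%) and 0 in that of a control domain, and 50 of the 63 started between 2 control peaks. Over all coding genes the share was 642 of 15811 (4.06%), and 5211 started between 2 control peaks. Genes for ribosomal proteins of the mitochondrion had 7 of 69 (10.1%), proteasome subunits 4 of 35 (11.4%), and subunits and assembly factors of respiratory complex I 4 of 40 (10%). ZNF genes had 9 of 437 (2.06%), with 119 between 2 control peaks, and solute carriers 10 of 303 (3.3%), with 90. Olfactory receptor genes had 0 of 314, keratin genes 0 of 34 and Mediator subunit genes 0 of 22; of these only 1 olfactory receptor gene and 9 Mediator genes started between 2 control peaks.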
